A study of Mus musculus with 8 samples.

Results

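DNA replication and repair genes were taken by name from the deposited gene matrix of a mouse neural progenitor culture series. A protein-coding gene was a member where its symbol followed the naming of the replication and repair families (Mcm, Orc, Cdc6, Cdc45, Cdt1, Gins, Pola, Pold, Pole, Prim, Rfc, Rpa, Rrm, Timeless, Chek, Atm, Atr, Rad, Brca, Fanc, Msh, Xrcc, Lig and Ercc), and Mcm6 was left out by the same rule. The rule found 66 members among the 9140 genes of the matrix, 8752 of which are protein-coding, and it used no measured value. By role, 7 members license replication origins, 3 fire origins or travel with the fork, 6 are polymerase or primase subunits, 6 load the clamp or coat single strands, 2 supply nucleotides, 6 act in checkpoints, 9 in homologous recombination, 4 in the Fanconi anaemia pathway, 4 in mismatch repair, 11 in excision and single-strand repair, 3 in end joining and 1 in damage tolerance. The remaining 4 were matched by name and placed in none of these roles: Rad21 is a cohesin subunit, and Mcm3ap, Rad54l2 and Ercc6l2 are named after a partner or a relative. Mcm2, Mcm3, Mcm5, Cdc6, Cdt1, Rrm2 and Brca1 were not analysed here.

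Replication starts at origins that the origin recognition complex marks and the MCM helicase is loaded on in G1, and the same helicase is switched on in S phase, when polymerases, the clamp loader and the single-strand binding protein RPA follow it. Transcription of many of these genes rises at the G1 to S transition under E2F factors. Nucleotide excision repair, base excision repair and end joining work in cells that do not divide as well, while homologous recombination uses the sister chromatid and is active in S and G2.

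The cells were primary hippocampal neural progenitor cells (NPCs) from the dentate gyrus of mouse embryos, grown with the growth factors EGF and FGF2 (day 0) and collected again 2, 4 and 8 days after the factors were withdrawn, a step used to start neuronal differentiation. There were 8 droplet libraries of single-cell RNA, in which a transcript was read near its 3′ end and counted once by its molecular identifier (UMI). At each day 1 library came from cells labelled Kmt2d+/βgeo, heterozygous for the gene-trap allele Mll2Gt(RRt024)Byg in the histone methyltransferase gene Kmt2d, a model of Kabuki syndrome, and 1 from cells labelled C57BL/6J, allele wild type. The embryos of both labels are described as littermates from C57BL/6J females mated to Kmt2d+/βgeo males, taken at embryonic day 18 by the labels and 17 by the study's methods. The study's methods speak of replicate cultures, of which 1 library for each label and day was used here. There was thus no replicate within a group and no test between groups was made. A model with additive terms for label and day, which would take their interaction as the error, was not fitted. Label, embryo, culture and library cannot be told apart.

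Values are mean normalised counts per cell, obtained from the deposited log2 values on a scale on which every cell sums to 8707. A gene was compared where its mean reached 0.1 in either library, and it was called lower or higher where the log2 ratio of the means passed 1. Intervals at 95% are exact counting intervals of the ratio of summed UMIs, printed with that ratio, and cover counting error only. The libraries held 2534 to 4900 cells, with a median of 6989 to 11230 matrix UMIs per cell in 7 libraries and 3972 in the Kmt2d+/βgeo library of day 8. The day 4 libraries were nearly identical, with a correlation of 0.998 between log2 means over genes and 0 genes past a log2 ratio of 1, so the label comparison at day 4 is given apart. They shared 2 cell barcodes. Whether each holds the cells of its label could not be checked here, so day 4 values are those of 2 libraries as labelled and not of 2 labels with certainty. Kmt2d itself did not separate the labels. Its mean in the library labelled Kmt2d+/βgeo and its wild-type counterpart was 0.193 and 0.157 on day 0, 0.171 and 0.197 on day 2, 0.295 and 0.237 on day 4, 0.290 and 0.241 on day 8. It was thus lower in the library labelled Kmt2d+/βgeo on day 2 alone. Where the counted tags lie relative to the gene trap was not examined here, and what these values say of the labels was not tested. Microglial and vascular markers were not analysed here. The progenitor list, with 5 of 9 genes present, summed to between 58.9 and 129 in every library.

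Taken over the members, the share of the transcriptome given to replication and repair was largest in the dividing cultures. Members took 0.277% of normalised counts in the Kmt2d+/βgeo library of day 0 and 0.254% in the wild-type library. They took 0.166% and 0.160% at day 2, 0.189% and 0.186% at day 4, with 0.165% and 0.180% at day 8. All 6 later libraries thus lay below both day 0 libraries, and the labels lay closer to each other than to their own day 0.

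Where in the cycle the members were expressed was read from the 9188 day 0 cells. Each cell was given a position θ on a circle by the leading pair of principal components over 429 genes of the cell cycle. The 21 members among such genes had been taken out first, so that no member placed the cells in which it was measured. Other genes of S phase, with Mcm6, Tipin, Nasp and Atad2 among those of largest weight, were kept. The S window was therefore not placed apart from replication genes. The S window ran from 0.25π to 1π and the G2/M window on to 1.5π. The S window held 29.6% of Kmt2d+/βgeo cells (exact binomial interval 28.2 to 31.0) and 19.5% of wild-type cells (18.4 to 20.7) at day 0, and the G2/M window 18.7% and 16.7%. These intervals cover the counting of cells within 1 library only. Variation between embryos, cultures and libraries is not in them, so they are no test of the labels. In the 6 later libraries the S window held between 0.0976% and 1.28% of cells, and few cells of any later library carried the position of dividing cells.

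Of the 61 members compared between the S window and the cells outside both windows, 29 were called higher in the S window in the Kmt2d+/βgeo library and 30 of 61 in the wild-type library, against 2.54% and 2.9% of all genes tested that had not placed the cells. Without the minimum, 30 and 31 of all 66 members passed, against 2.47% and 2.79%. Of the members compared, 14 reached the minimum in the S window alone in the Kmt2d+/βgeo library and 10 in the wild-type library. No member was called lower, where 0.862% and 1.27% of all genes were. The median ratio over the members compared was 0.93 and 0.97, beside −0.06 and −0.04 over all genes.

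The base of this ratio was cells outside both windows, and genes of mitosis had high ratios too. All 5 mitotic genes compared were higher, at medians of 3.48 and 3.57, and so were 14 and 13 of 18 G2/M genes, at medians of 1.72 and 1.94, with no gene of these lists kept out of placing the cells. A high ratio therefore does not mark S phase alone, and the peak positions given further on do not use it. The roles differed in how many members were higher in the S window, as the plot of expression along the cycle shows for 8 of them. All 3 GINS members, parts of the complex that joins the helicase at firing, were higher, at medians of 3.42 in Kmt2d+/βgeo and 3.34 in wild-type cells. Of all genes 2.54% and 2.9% were higher, which stands beside each role count here. Gins1 and Gins3 reached the minimum in the S window alone and so had to be higher. Gins4 reached it on both sides and was at 1.37 in both libraries. All 6 clamp loader and RPA members were higher, between 1.29 and 2.15 in Kmt2d+/βgeo cells. Of the 6 polymerase and primase members 5 were higher in both libraries, and Pole4, an accessory subunit of polymerase ε, missed the threshold at 0.86 and 0.96. Some of the 5 reached the minimum in the S window alone: Pola2 in both libraries, Prim2 in the Kmt2d+/βgeo one and Pola1 in the wild-type one. Licensing was split: Mcm4 and Mcm7, helicase subunits, and Orc2 and Orc6 were higher, whereas Orc3, Orc4 and Orc5 lay between −0.02 and 0.42.

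Among repair genes 4 of 7 recombination members compared were called higher in Kmt2d+/βgeo cells (2.54% of all genes) and 5 of 7 in wild-type cells (2.9%). All 4 in Kmt2d+/βgeo cells reached the minimum in the S window alone and so had to be higher. Of the 5 in wild-type cells only Brca2 and Rad50 reached it on both sides. Excision and end-joining members mostly were not called. The highest ratio of any member was that of Rad54l, a motor protein of recombination, at 3.98 and 4.14. Rad18, a ubiquitin ligase of damage tolerance, was at 2.88 and 2.78, and it too reached the minimum in the S window alone. Brca2, a mediator of recombination, was at 2.66 and 2.64. Of 11 excision and single-strand repair members only Xrcc1, a scaffold of single-strand repair, was called, at 1.02 and 1.12. The lowest ratio of any member in both libraries was that of Ercc6, which acts in transcription-coupled repair, at −0.60 and −0.44. None of the 3 end-joining members was called. Rrm1, the large subunit of ribonucleotide reductase, was at 2.31 and 2.69, while Rrm2b, its small subunit induced by p53, was at −0.53 and −0.26.

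**Figure D1:**
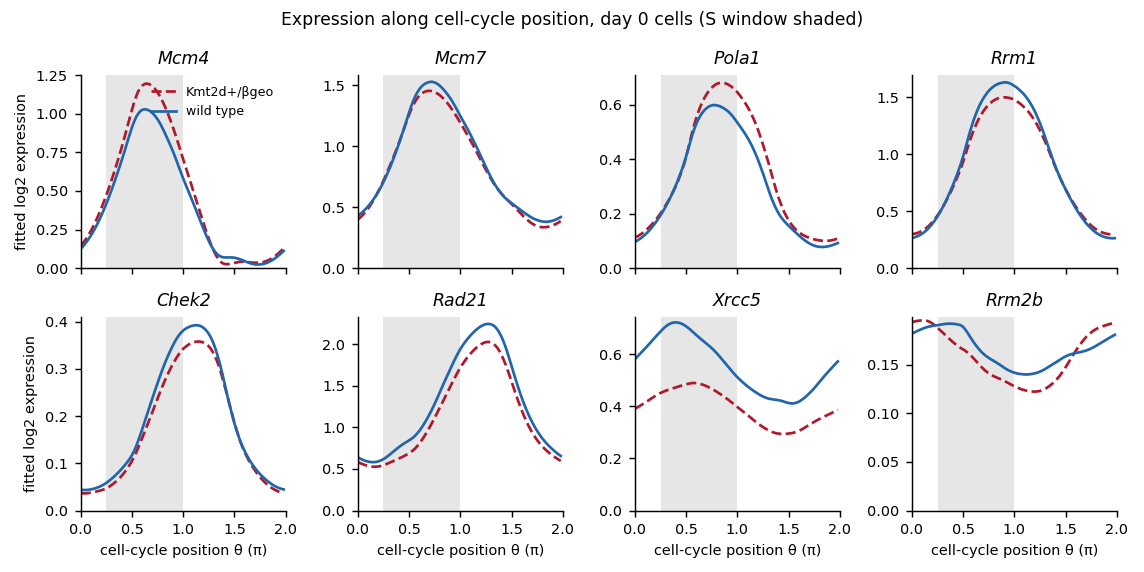
Fitted log2 expression (vertical axis, log2 of the normalised count plus 1) against cell-cycle position θ (horizontal axis, in units of π) for 8 members in day 0 cells, dashed for Kmt2d+/βgeo and solid for wild type, with the S window shaded. Mcm4 peaks at 0.63π over both libraries and Rad21 at 1.27π, while Rrm2b stays below 0.2 throughout.

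Peak positions along the circle were read from fitted curves, and no error was estimated for them. A periodic loess curve accounted for at least 0.02 of the variance in 37 of 66 members, and 34 of these peaked inside the S window. The curve was not fitted over all genes, so no share of all genes stands beside these counts and they are a description of the members. Among the examples Mcm4 had its peak at 0.63π, Rfc3 at 0.68π, Mcm7 at 0.71π, Prim1, the catalytic primase subunit, at 0.75π, and Rfc4 at 0.77π. Pola1, the catalytic subunit of polymerase α, had it at 0.81π, and Rrm1 at 0.91π. The 3 that peaked later included Chek2, a kinase that signals breaks, at 1.14π, and Rad21 at 1.27π. The share of variance on the curve was highest for Rrm1 at 0.461, with 0.416 for Rad21 and 0.401 for Mcm4, and was 0.0037 for Rrm2b and 0.0021 for Orc4. In the separate libraries Mcm4 peaked at 0.64π and 0.62π, Pola1 at 0.84π and 0.78π, Rrm1 at 0.90π in both and Rad21 at 1.27π in both. The order of peaks that lie close together is therefore not settled.

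Since 29 members were higher in the S window in both libraries, the promoters of members were searched for letters that E2F proteins are known to bind. Promoters were RefSeq sequences of GRCm38.p6 from 250 bases before to 50 after the start, and 52 of 66 members had one. The E2F-like letters searched, on both strands, were TTTCCCGC, TTTGGCGC, TTTCGCGC and TTTGCCGC. They stood in 14 of 52 members (26.9%), beside 4.89% of the 7256 matrix genes with a promoter and 2.6% of all 27025 genes of the table. Within the members they stood in 9 of the 22 that were higher in the S window in both libraries (40.9%) and in 5 of the other 30 (16.7%). The CCAAT letters stood in 77.3% and 50% of the same members and in 43% of matrix genes, and TTTGAA, the core of the cell-cycle homology region bound late in the cycle, in 4.55% and 6.67%, beside 13.6% of matrix genes. Such a match is a description of letters and not a bound site. The sequences below show, with the searched E2F-like letters in capitals, promoters with a match in 3 members higher in the S window, none in Rrm1, which was higher there too, and none in Xrcc4, which was not. Pola1 lies at chrX:93632106-93632405 on the minus strand with a match starting at −138 from the start, Gins3 at chr8:95633309-95633608 on the plus strand with a match at −41, and Rfc3 at chr5:151651159-151651458 on the minus strand with matches at −10 and 0. Rrm1 lies at chr7:102441445-102441744 on the plus strand and Xrcc4 at chr13:90089559-90089858 on the minus strand.
Pola1: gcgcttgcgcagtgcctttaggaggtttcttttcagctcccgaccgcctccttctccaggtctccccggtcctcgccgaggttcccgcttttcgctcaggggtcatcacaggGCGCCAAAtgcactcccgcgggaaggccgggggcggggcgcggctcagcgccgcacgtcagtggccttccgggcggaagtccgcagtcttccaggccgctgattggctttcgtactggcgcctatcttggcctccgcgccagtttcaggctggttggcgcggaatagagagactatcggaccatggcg
Gins3: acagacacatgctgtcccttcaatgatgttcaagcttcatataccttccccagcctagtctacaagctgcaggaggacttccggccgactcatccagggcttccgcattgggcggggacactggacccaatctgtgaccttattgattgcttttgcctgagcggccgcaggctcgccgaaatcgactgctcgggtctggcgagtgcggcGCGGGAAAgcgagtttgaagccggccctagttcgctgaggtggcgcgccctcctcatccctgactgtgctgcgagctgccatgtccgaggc
Rfc3: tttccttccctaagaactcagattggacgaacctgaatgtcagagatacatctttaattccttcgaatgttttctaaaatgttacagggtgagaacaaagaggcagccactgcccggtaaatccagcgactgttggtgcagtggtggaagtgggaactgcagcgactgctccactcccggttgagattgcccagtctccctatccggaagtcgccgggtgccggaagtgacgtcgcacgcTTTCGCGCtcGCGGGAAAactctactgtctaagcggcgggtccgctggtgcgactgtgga
Rrm1: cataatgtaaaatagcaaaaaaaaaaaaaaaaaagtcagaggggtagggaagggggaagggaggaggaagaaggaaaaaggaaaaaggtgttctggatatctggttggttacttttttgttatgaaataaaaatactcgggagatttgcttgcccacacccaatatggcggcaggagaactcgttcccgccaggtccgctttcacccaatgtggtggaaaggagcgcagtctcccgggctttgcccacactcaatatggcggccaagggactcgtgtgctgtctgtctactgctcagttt
Xrcc4: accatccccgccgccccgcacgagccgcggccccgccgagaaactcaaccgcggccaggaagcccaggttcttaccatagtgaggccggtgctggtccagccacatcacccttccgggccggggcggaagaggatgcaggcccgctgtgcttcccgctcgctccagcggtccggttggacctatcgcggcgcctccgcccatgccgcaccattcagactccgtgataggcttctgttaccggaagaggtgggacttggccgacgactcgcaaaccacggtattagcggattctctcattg

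After withdrawal many members were lower, and 9 were called lower in all 6 later libraries against the day 0 library of the same label (2.37% of all genes). Of 58 members compared in Kmt2d+/βgeo cells, 17 were called lower at day 2, where 6.74% of all genes were, 13 at day 4 (6.61% of all genes) and 27 at day 8 (13.9%). Of 57 compared in wild-type cells, 15 were lower at day 2 (5.56% of all genes), 11 at day 4 (6.6%) and 18 at day 8 (10.9%). Rrm2b, at day 8 in both labels, was the only member called higher. Of all genes, 10.7%, 14.8% and 19% were called higher in Kmt2d+/βgeo cells at days 2, 4 and 8, and 8.08%, 11.9% and 16.3% in wild-type cells. Some members reached the minimum through day 0 alone and so had to be low later: 12, 8 and 20 in Kmt2d+/βgeo cells and 14, 8 and 13 in wild-type cells at days 2, 4 and 8. Without the minimum, 21, 18 and 31 of all 66 members were lower in Kmt2d+/βgeo cells (6.16%, 6.19% and 12.6% of all genes) and 21, 16 and 23 in wild-type cells (5.13%, 6.15% and 10.2%).

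Median ratios said the same of the middle of the list. Over the members compared the median log2 ratio was −0.64, −0.44 and −0.86 at days 2, 4 and 8 in Kmt2d+/βgeo cells, and −0.59, −0.40 and −0.58 in wild-type cells. Over all genes it was 0.05, 0.17 and 0.11, and 0.01, 0.09 and 0.04. Below a log2 ratio of −1 on days 2, 4 and 8 and in both labels were 9 of 57 members, namely Chek2, Mcm4, Mcm7, Pola1, Prim1, Rad18, Rad54l, Rfc4 and Rrm1, where 2.37% of all genes were. Without day 4 there were 11, with Brca2 and Prim2 added, against 2.87%. Of the members named here, Chek2, Rad18 and Rad54l were under the minimum in every later library. They were thus compared through day 0 alone and had to be low later. Mcm4, Pola1 and Prim1 were under it in some later libraries, while Mcm7, Rfc4 and Rrm1 were above it in all. Neither count was taken without the minimum. The ratios of a label share its day 0 library.

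**Figure D2:**
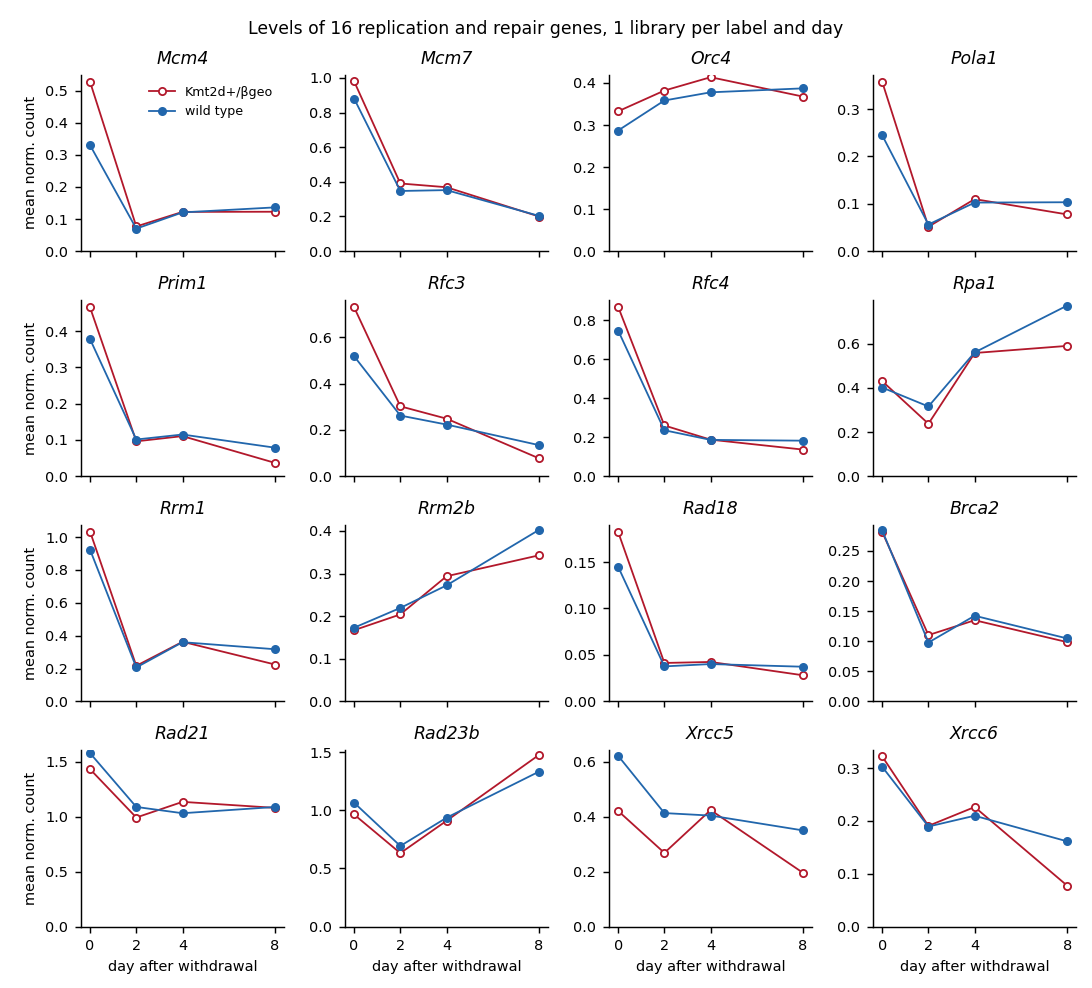
Mean normalised count per cell (vertical axis, linear, from 0) against day after growth factor withdrawal (horizontal axis) for 16 members, open red for Kmt2d+/βgeo and filled blue for wild type, 1 library per point and no error bar. Mcm4 goes from 0.528 and 0.330 at day 0 to 0.0769 and 0.0701 at day 2, while Rrm2b goes from 0.167 and 0.173 to 0.343 and 0.403 at day 8.

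Both helicase subunits were called lower on every later day in both labels. Of the origin recognition complex, Orc2, Orc5 and Orc6 were called on some days in 1 label, and Orc3 and Orc4 on none. Of all genes 6.74%, 6.61% and 13.9% were lower at days 2, 4 and 8 in Kmt2d+/βgeo cells and 5.56%, 6.6% and 10.9% in wild-type cells. Mcm4, at chr16:15623897-15637400 of GRCm38, had a mean of 0.528 in Kmt2d+/βgeo cells and 0.330 in wild-type cells at day 0, 0.0769 and 0.0701 at day 2, 0.122 and 0.121 at day 4, then 0.123 and 0.136 at day 8. Mcm7 had 0.980 and 0.881 at day 0, 0.391 and 0.347 at day 2, 0.369 and 0.352 at day 4, then 0.200 and 0.203 at day 8. Both helicase subunits were thus below either day 0 library in all 6 later libraries, Mcm4 lowest at day 2 and Mcm7 lowest at day 8. Orc6, the smallest subunit of the origin recognition complex, went from 0.743 and 0.595 to 0.366 and 0.329 at day 2, then stayed between 0.349 and 0.380, and was called lower in Kmt2d+/βgeo cells at days 2 and 8 (−1.02 and −1.09, beside −0.85 and −0.65 in wild-type cells). Orc2, another subunit, had 0.455 and 0.379 at day 0, 0.219 and 0.220 at day 2, 0.356 and 0.331 at day 4, then 0.330 and 0.265 at day 8, and was called in Kmt2d+/βgeo cells at day 2 (−1.06 beside −0.78). Orc4, a subunit of the complex core, was 0.333 and 0.287 at day 0 and between 0.358 and 0.414 later, so that no later library was below its day 0. Orc5, another core subunit, was called lower only in wild-type cells at day 8, at a ratio of −1.34 beside −0.65 in Kmt2d+/βgeo cells. It reached the minimum there through day 0 alone and so had to be low.

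Of the 3 GINS members 2 had few counts after day 0. Gins1 had a mean of 0.0910 and 0.0862 at day 0 and Gins3 of 0.0830 and 0.0678, both under the minimum in all libraries, and their later means were between 0.0144 and 0.0301. Gins4 did not follow them in time: it was 0.526 and 0.423 at day 0 and between 0.372 and 0.456 later, with ratios from −0.36 to −0.04, although it was higher in the S window at 1.37 in both libraries.

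Of the 6 polymerase and primase members 3, 2 and 4 were called lower at days 2, 4 and 8 in Kmt2d+/βgeo cells (6.74%, 6.61% and 13.9% of all genes). In wild-type cells 3, 2 and 3 were (5.56%, 6.6% and 10.9%). Pola1 and Prim1 were among them each time in both labels. Of those called, only Prim1 in wild-type cells was above the minimum at day 2, and only Pola1 in wild-type cells at day 8. The others on those days were compared through day 0 alone and had to be low. Pola1 had a mean of 0.358 and 0.245 at day 0, 0.0515 and 0.0562 at day 2, 0.110 and 0.103 at day 4, then 0.0775 and 0.103 at day 8. Prim1, at chr10:128015168-128030037, had 0.465 and 0.378 at day 0, 0.0962 and 0.101 at day 2, 0.111 and 0.115 at day 4, then 0.0368 and 0.0787 at day 8. Prim1 had the lowest day 8 ratio of any member compared in both labels, at −3.66 and −2.26. In summed UMIs its day 8 ratio was −3.68 (−4.09 to −3.31) in Kmt2d+/βgeo cells, from 3149 and 57 UMIs, and −2.61 (−2.82 to −2.40) in wild-type cells, from 2724 and 195. The other primase subunit Prim2 was at −1.85 and −1.29 at day 8. Pold3, a subunit of polymerase δ, was at −0.85 and −0.14 and Pole4 at −0.14 and −0.34 at day 8, and neither was called on any day.

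Clamp loader subunits differed in time course although all load the same clamp. Rfc3, at chr5:151642756-151651242, had a mean of 0.730 and 0.519 at day 0, 0.302 and 0.262 at day 2, 0.249 and 0.223 at day 4, then 0.0773 and 0.134 at day 8, going down at each step in both labels. Rfc4 had 0.869 and 0.748 at day 0, 0.261 and 0.236 at day 2, 0.188 and 0.187 at day 4, then 0.137 and 0.183 at day 8. Rfc1, the large subunit, was at −0.75 and −0.62 at day 2 and at −1.19 and −0.71 at day 8. Rpa1, the large subunit of RPA, went the other way after day 2: it was 0.430 and 0.401 at day 0, 0.237 and 0.315 at day 2, 0.557 and 0.560 at day 4, then 0.589 and 0.772 at day 8. Its later levels were thus above day 0 at days 4 and 8 in both labels, without reaching the 2-fold threshold (0.94 in wild-type cells at day 8).

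The ribonucleotide reductase subunits moved in opposite directions. Rrm1 had a mean of 1.03 and 0.923 at day 0, 0.216 and 0.207 at day 2, 0.363 and 0.360 at day 4, then 0.224 and 0.317 at day 8. Rrm2b had 0.167 and 0.173 at day 0, 0.204 and 0.219 at day 2, 0.294 and 0.272 at day 4, then 0.343 and 0.403 at day 8. Rrm2b was higher at each later day than at the one before in both labels, and its day 8 ratio in summed UMIs was 1.08 (0.92 to 1.24) in Kmt2d+/βgeo cells and 1.26 (1.13 to 1.38) in wild-type cells.

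Of the 5 checkpoint members compared by day only Chek2 was called, lower on days 2, 4 and 8 in both labels. Of all genes 6.74%, 6.61% and 13.9% were lower in Kmt2d+/βgeo cells and 5.56%, 6.6% and 10.9% in wild-type cells. Chek2 had a mean of 0.149 and 0.147 at day 0 and between 0.0532 and 0.0677 in all later libraries. In cells outside the S and G2/M windows its ratio to day 0 was above 0, except in wild-type cells at day 8 (−0.09). The kinases at the top of the checkpoint were not called. Atr, which responds to stalled forks, was 0.142 in both day 0 libraries and between 0.142 and 0.196 later. Atm, which responds to breaks, had ratios between −0.83 and 0.05. Its mean was below day 0 (0.3116 and 0.2925) in both labels at day 2 (0.2025 and 0.2123) and at day 8 (0.1759 and 0.2443). Rad17 and Rad1, which load and form the checkpoint clamp, had ratios between −0.64 and 0.01.

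Of 6 recombination members compared in Kmt2d+/βgeo cells 3, 3 and 5 were called lower at days 2, 4 and 8 (6.74%, 6.61% and 13.9% of all genes), and of 5 in wild-type cells 2, 1 and 3 (5.56%, 6.6% and 10.9%). Of those called, Brca2 was above the minimum at days 2 and 4 in Kmt2d+/βgeo cells and at day 8 in wild-type cells, and Rad50 at day 8 in both. The other calls were reached through day 0 alone, so these members had to be low later. The only damage tolerance member, Rad18, was called on all 3 days in both labels, also through day 0 alone. Brca2 had a mean of 0.282 and 0.284 at day 0, 0.110 and 0.0979 at day 2, 0.135 and 0.142 at day 4, then 0.0986 and 0.105 at day 8. Rad18 was at −2.14 and −1.94 at day 2 and −2.70 and −1.96 at day 8. Rad50, part of the break-sensing complex, was at −0.70 and −0.66 at day 2, −0.46 and −0.53 at day 4, then −1.04 in both labels at day 8, where alone it was called. Rad52, which anneals single strands, was at 0.35 and 0.15 at day 2, −0.11 and −0.23 at day 4, then −0.87 and −0.59 at day 8, and was not called.

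Of 3 Fanconi members compared, Fance and Fancl were called lower at day 8 in Kmt2d+/βgeo cells, where 13.9% of all genes were. In wild-type cells Fancl and Fancm were called at day 8, where 10.9% were, and Fancm at day 4 as well. In each of these calls Fancl and Fancm reached the minimum through day 0 alone and so had to be low later. Fance was above it at day 8. Of 3 mismatch repair members compared, 2 were called at day 8 in Kmt2d+/βgeo cells and 0 on any day in wild-type cells. Fancl, the ubiquitin ligase of the Fanconi pathway, was at −0.61 and −0.79 at day 2 and −1.72 and −1.16 at day 8. Fancm, a fork-remodelling translocase, was at −0.82 and −0.85 at day 2 and −0.99 and −1.22 at day 8. Msh6, which binds mismatches, had a mean of 0.281 and 0.218 at day 0, 0.147 and 0.150 at day 2, 0.220 and 0.221 at day 4, then 0.136 and 0.233 at day 8. Its mean was thus below day 0 in both labels at day 2, and in the Kmt2d+/βgeo library alone at days 4 and 8.

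Excision repair members are described singly, since their calls were near the share of all genes. Rad23b, which stabilises the damage sensor of nucleotide excision repair, had a mean of 0.963 and 1.06 at day 0, 0.631 and 0.692 at day 2, 0.909 and 0.936 at day 4, then 1.48 and 1.33 at day 8. Ercc2 and Ercc3, the helicases of the repair factor TFIIH, had day 8 ratios of 0.45 and 0.59 and of 0.06 and 0.62. Ercc4, a nuclease subunit, was at 0.50 and 0.44, and its partner Ercc1 at −1.30 and −0.71. Xrcc1 was at −1.49 and −1.10 at day 8, and Lig3, the ligase that partners with it, at −0.32 and −0.20. Over the 11 members the median was −0.17 and −0.32 at day 2 and −0.32 and −0.20 at day 8, and 1 or 2 of 11 were called lower at each, where 6.74% and 5.56% of all genes were at day 2 and 13.9% and 10.9% at day 8.

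End-joining members were divided too. Xrcc6 and Xrcc5 encode the subunits of the Ku dimer that caps broken ends. Xrcc6 had a mean of 0.322 and 0.302 at day 0, 0.191 and 0.189 at day 2, 0.226 and 0.210 at day 4, then 0.0775 and 0.161 at day 8. Xrcc4, the scaffold of the end-joining ligase, had 0.180 and 0.151 at day 0 and 0.207 and 0.224 at day 8. Of the members not named so far, Rfc2, a clamp loader subunit, was called at day 2 (−1.26 and −1.12) and, in Kmt2d+/βgeo cells alone, at day 8 (−1.12 beside −0.44). Ercc8, of transcription-coupled repair, was called at day 2 (−1.03 and −1.01) and, in wild-type cells alone, at day 8 (−1.03 beside −0.80). In each of these calls Ercc8 reached the minimum through day 0 alone and so had to be low later. Pola2, of polymerase α, was at −1.36 and −0.84 and Msh3, of mismatch repair, at −0.54 and −0.10 at day 8. Fancc, Rad9b, Msh5, Mcm8 and Mcm9 stayed under the minimum on all days. Among the 4 members placed in no role, Rad21 had 1.43 and 1.58 at day 0 and between 0.991 and 1.13 later.

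Genes of the same processes outside the naming rule were listed too. Of 74 other replication and repair genes 49 had a row. In Kmt2d+/βgeo cells 21, 17 and 24 of 43 compared were lower at days 2, 4 and 8, where 6.74%, 6.61% and 13.9% of all genes were, and in wild-type cells 16, 12 and 16 of 41, where 5.56%, 6.6% and 10.9% were. Nasp, a histone chaperone, went from 2.23 and 1.62 at day 0 to 0.398 and 0.437 at day 2, while Ddb1, part of the complex that recognises ultraviolet damage, stayed between 1.51 and 1.96 in all libraries. Top2a, the mitotic topoisomerase, went from 3.50 and 3.30 to between 0.0550 and 0.142. Astrocyte markers moved with the days as well: the 6 of 9 listed genes with a row summed to 24.2 and 17.8 at day 0, 228 and 181 at day 2, 267 and 247 at day 4, then 110 and 250 at day 8. Apoe alone gave 94.7 and 230 of the day 8 sums. The neuronal list had 2 of 8 genes present. Map2, which also occurs outside neurons, had a mean between 2.85 and 4.00 in every library, and Rbfox3, a marker of mature neurons, had 0.00535 and 0.0174 at day 0, 0.0356 and 0.0501 at day 2, 0.170 and 0.176 at day 4, then 0.113 and 0.0472 at day 8. In the same order of labels, the 1 of 6 oligodendrocyte lineage genes present had 5.53 and 8.09 at day 0 and 1.48 and 0.911 at day 8. Their part in the members' ratios was not tested. In a mean over cells, fewer cells expressing a gene and less RNA per cell cannot be told apart.

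Members with higher S window ratios at day 0 had lower day 2 ratios, as the plot of window ratio against day 2 ratio shows. Across the 58 members of Kmt2d+/βgeo cells the ratios had a Pearson correlation of −0.817 and a Spearman correlation of −0.798, and across the 57 of wild-type cells of −0.814 and −0.751. For day 8 they were −0.682 and −0.671, and −0.621 and −0.593. Each pair of ratios shares the day 0 library, and genes are not independent replicates, so these are given as a description.

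**Figure D3:**
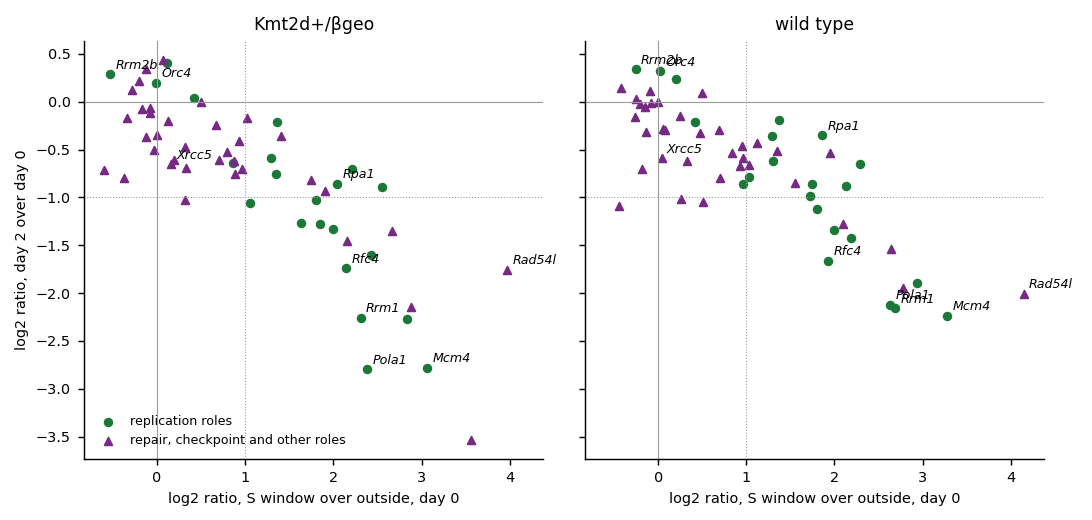
Log2 ratio of day 2 over day 0 (vertical axis) against the log2 ratio of S window over outside cells at day 0 (horizontal axis), 1 point per member, circles for replication roles and triangles for repair, checkpoint and other roles, with Kmt2d+/βgeo at left and wild type at right. Dotted lines mark a ratio of 2-fold; Mcm4 stands at 3.07 and −2.78 at left, Rrm2b at −0.53 and 0.29.

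The same ratios were then taken in cells outside the S and G2/M windows alone, an alternative added after the data were seen. Of the members compared, 3 were lower in Kmt2d+/βgeo cells at day 2 (Mcm4 and Pola1 among them), 1 at day 4 (Rfc4) and 10 at day 8, where 4.72%, 5.53% and 12.1% of all genes were. In wild-type cells 1 was lower at day 2 (Ercc6), 1 at day 4 (Rfc4) and 7 at day 8, against 3.91%, 6.05% and 10%. These counts are no result about the members. Member medians were −0.16, −0.01 and −0.32 in Kmt2d+/βgeo cells and −0.23, −0.02 and −0.23 in wild-type cells, each below the median of all genes, which was 0.06, 0.17 and 0.11 and 0.02, 0.11 and 0.06.

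At day 8 the member counts outside the windows were close to the share of all genes as well, and the values that follow describe single members. Rfc3 had a mean of 0.385 and 0.331 in such cells at day 0 and 0.0718 and 0.116 at day 8. Prim1 had 0.138 and 0.134, then 0.0353 and 0.0611, and Rfc4 0.363 and 0.411, then 0.130 and 0.150. Mcm7 and Fancl were called with them in both labels. Rpa1 was called higher in both labels at day 8, where 18.4% and 15.9% of all genes were, with 0.201 and 0.241 at day 0 and 0.589 and 0.770 at day 8. In all cells it was not called. Brca2, which was lower in all cells, had 0.0903 and 0.114 at day 0 and 0.0915 and 0.0961 at day 8 in these cells. The small levels of Rad54l turned direction, from 0.0186 and 0.0248 to 0.0387 and 0.0279.

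**Figure D4:**
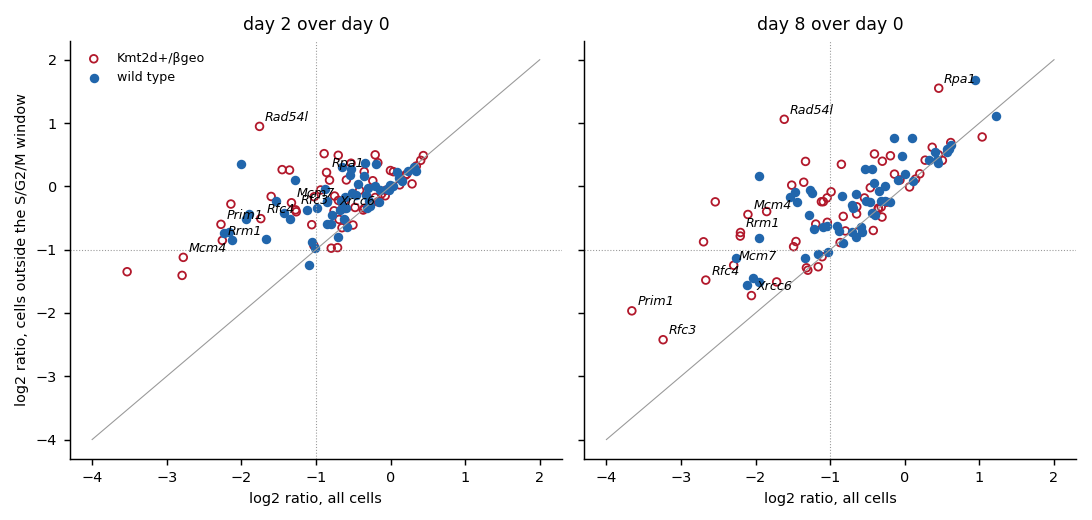
Log2 ratio to day 0 in cells outside the S and G2/M windows (vertical axis) against the ratio in all cells (horizontal axis) for day 2 at left and day 8 at right, 1 point per member compared, open red for Kmt2d+/βgeo and filled blue for wild type, with the line of equal values. Of the members compared, 46 of 58 and 45 of 57 lie above the line at day 2 in Kmt2d+/βgeo and wild-type cells; Rfc3 and Prim1 stay below −1 on both axes at day 8, and Rpa1 is the highest point in the right panel.

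Between the labels few members differed by 2-fold. At day 0 none of 58 members compared was called, where 1.55% of all genes were, and at day 2 none of 47 (2.84%). Of 44 at day 8, 2 were called (4.87% of all genes), both lower in the Kmt2d+/βgeo library. They were Xrcc6 at −1.06 and Rad51d, of homologous recombination, at −1.01. Both reached the minimum in the wild-type library alone, as did 6 of the 44, and so had to be lower in the Kmt2d+/βgeo one. No member reached it in the Kmt2d+/βgeo library alone at day 8. Without the minimum, 4 of 66 passed at day 8, 3 lower and 1 higher (2.74% and 2.33% of all genes), Prim1 lower at −1.10 and Rad51b higher at 1.26 among them. At day 4 none of 51 was called and 0% of all genes were. The spread of the ratios between labels (SD over members) was 0.245 at day 0, 0.209 at day 2, 0.115 at day 4 and 0.391 at day 8, beside 0.342, 0.381, 0.109 and 0.492 over all genes.

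At day 0 the differences under 2-fold leaned to the Kmt2d+/βgeo library and at day 8 to the wild-type one. The counting interval lay above 0 for 27 of 58 members at day 0 (31.5% of all genes) and below 0 for 12 (44.8%). At day 8 it lay above 0 for 5 of 44 (31.8%) and below 0 for 23 (35.1%). Of those 44, 6 reached the minimum in the wild-type library alone and so had to be lower in the Kmt2d+/βgeo one. Among the largest ratios at day 0 were Mcm4 at 0.68, Fance, a Fanconi core subunit, at 0.61, Xrcc5 at −0.56 and Pola1 at 0.55. The larger S window of the Kmt2d+/βgeo library stands beside these values. Beside those of day 8 stand the shallower Kmt2d+/βgeo library, its astrocyte marker sum of 110 against 250, its progenitor marker sum of 67.2 against 106 and its Rbfox3 mean of 0.113 against 0.0472. Single markers went both ways. The 5 progenitor markers had ratios from −0.99 to 1.76 with a median of −0.05, and the 6 astrocyte markers from −1.28 to 0.44 with a median of −0.69. The part of the S window share, the depth and the markers in the members' ratios was not tested. Within the windows of day 0 the median ratio of members was −0.03 in the S window, −0.07 in the G2/M window and 0.02 outside, beside −0.04, −0.06 and −0.03 over all genes. Mcm4 had a mean of 1.32 against 1.10 in the S window, 0.299 against 0.261 in the G2/M window and 0.158 against 0.113 outside, so its window ratios of 0.26, 0.20 and 0.48 were each below the 0.68 of all cells. Fance had window ratios of 0.58, 0.37 and 0.68, beside 0.61 in all cells.

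On days 0, 2 and 8 the ratio between labels had 1 sign for 14 of 66 members, where 35.4% of all genes had 1 sign, and for 5 (Ercc5, Rad51b, Rpa3 and Xrcc5 among them) every interval left out 0, where 16.1% of all genes did so. The members were thus not held to 1 direction more often than other genes, and the values that follow describe single members. Xrcc5 was lower in the Kmt2d+/βgeo library by −0.52 (−0.59 to −0.44) at day 0, −0.63 (−0.74 to −0.52) at day 2 and −0.77 (−0.97 to −0.58) at day 8 in summed UMIs, and was at 0.08 (−0.03 to 0.20) at day 4. Its mean was 0.422 in Kmt2d+/βgeo cells against 0.622 in wild-type cells at day 0, 0.268 against 0.414 at day 2, 0.425 against 0.405 at day 4, then 0.196 against 0.350 at day 8. It was lower in all 3 windows at day 0, at −0.50, −0.49 and −0.61. Rpa3, the small RPA subunit, was higher at 0.51 (0.43 to 0.59), 0.29 (0.17 to 0.41) and 0.79 (0.63 to 0.95), and at −0.19 (−0.34 to −0.04) at day 4. Xrcc6, the partner of Xrcc5, was at 0.12 (0.03 to 0.22) at day 0, 0.02 (−0.12 to 0.17) at day 2 and −0.97 (−1.28 to −0.67) at day 8.

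**Figure D5:**
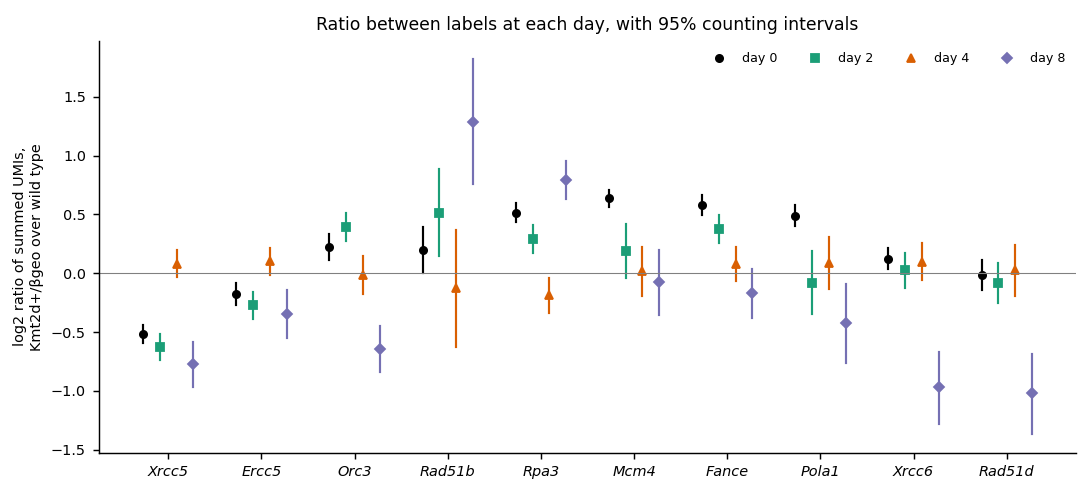
Log2 ratio of summed UMIs, Kmt2d+/βgeo over wild type (vertical axis), for 10 members (horizontal axis) at days 0, 2, 4 and 8, with 95% counting intervals as bars and 1 library per label and day. Xrcc5 lies below 0 at days 0, 2 and 8 and at 0.08 at day 4, and Xrcc6 and Rad51d lie below 0 only at day 8 by more than their intervals.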

How the data were processed

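Single-cell libraries were made from neural progenitor cells of 2 labels at 4 time points, 1 library each, and cells were mapped to libraries through the deposited cell table. The log2 values were deposited by the authors as log2 of a library-size-normalised count plus 1, from spliced counts of Alevin (Salmon 1.3.0, with Seurat 3.2.2 also named) on GRCm38 per the submitters' processing notes, after they removed outlier cells, mitochondrial genes and rarely seen genes. The total UMIs per cell are estimated counts from the same tool, deposited by the authors, with medians of 7926 in the Kmt2d+/βgeo library of day 8 to 23219. Doublets were not called here. Whether counting used strand is not given in the sources here. In all, 31 members overlap a gene on the other strand.

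Log2 values were turned back to normalised counts and averaged over cells, so 1 pseudocount was removed. UMIs were recovered by dividing by each cell's commonest value, which gave 86.8% of values within 0.01 of a whole number, and were summed for exact conditional intervals. Since every group is 1 library, no test was run, and calls are by size alone. Cell-cycle positions came from principal components of the cell-cycle gene pairs of scran 1.30.0 (R 4.3.3), with the listed S phase and G2/M genes and Smc2 added and members left out. Curves were loess fits of span 0.3 over 3 copies of the circle. Other steps used Python 3.11.15 with numpy 2.4.6, scipy 1.17.1, pandas 2.3.3 and matplotlib 3.10.9, and were tested on simulated data. Libraries shared 0 to 10 cell barcodes. Promoters were missing for 14 members, which are left out of the letter search.

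Members, roles and gene lists were chosen with earlier results of these data known. Members named with values were a core list of replication and repair genes, the 5 lowest and highest day 8 ratios of a label, the 5 largest ratios between labels at days 0, 2 and 8, and the 5 highest and lowest S window ratios, with Kmt2d, Top2a and genes of high mean from the list of other genes. Other members were named after their values were seen, and results for some members are not reported here. Alternatives were a minimum of 0.5 or none, mean log2 values, summed UMIs, cells thinned to 3000 UMIs (leaving out 23, 756 and 3 shallower cells in the Kmt2d+/βgeo libraries of days 0 and 8 and the wild-type library of day 8), other embeddings and windows, and cells outside the windows.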

Additional observations from a re-analysis of the deposited data

Results flagged for a closer look

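For Orc3, a subunit of the origin recognition complex, the day 8 change went in opposite directions in the labels, with counting intervals that left out 0 on both sides, while each label had 1 library, so the difference itself was not tested. Its log2 ratio of summed UMIs, day 8 over day 0, was −0.31 (−0.50 to −0.13) in Kmt2d+/βgeo cells and 0.55 (0.42 to 0.67) in wild-type cells.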

How the results depend on the processing

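Counts of members by day held within 1.5 times with no minimum, summed UMIs and thinning to 3000 UMIs, and those of the S window with the other embeddings, window and summed UMIs. As a difference of mean log2 values no member passed on any day in either label (0), nor between labels at day 8 (0), where 2 members in the Kmt2d+/βgeo day 0 library and 1 in the wild-type one have a mean log2 value of 1 or more, so nearly all could not fall by 1. A minimum of 0.5 left 13 to 16 members by day, 7 between labels at day 8 and 27 in the S window of Kmt2d+/βgeo cells, and called 7, 5 and 9 lower at days 2, 4 and 8 in Kmt2d+/βgeo cells and 4, 4 and 5 in wild-type cells, 0 between labels at day 8 and 19 higher in the S window of Kmt2d+/βgeo cells. The share of all genes called at the minimum of 0.5 is not given here, so the counts at that minimum are no result about the members. Between labels at day 8, no minimum gave 4 and summed UMIs 1, in place of 2. In cells outside the windows the counts by day were 3, 1 and 10 in Kmt2d+/βgeo cells and 1, 1 and 7 in wild-type cells, and the cause was not tested. There 14, 16 and 10 of 58 members with a ratio below 0 in all cells had one above 0 in Kmt2d+/βgeo cells at days 2, 4 and 8, and 10, 13 and 8 of 57 in wild-type cells. Of the ratios called lower in all cells, those that turned were Rad54l (0.95, 1.21 and 1.06 at days 2, 4 and 8 in Kmt2d+/βgeo cells, 0.35, 0.56 and 0.17 in wild-type cells), Chek2 (0.26, 0.54 and 0.39 in Kmt2d+/βgeo cells, 0.10 and 0.24 at days 2 and 4 in wild-type cells), Brca2 (0.26, 0.50 and 0.019 in Kmt2d+/βgeo cells), Pola2 (0.065 at day 8 in Kmt2d+/βgeo cells) and Rrm1 (0.040 at day 4 in wild-type cells). Against the wild-type day 0 library 11 members, not 13, were lower in the Kmt2d+/βgeo library of day 4. This and the restriction to cells outside the windows were chosen after seeing the data. The median of all genes at day 4 in Kmt2d+/βgeo cells was 0.17 by mean counts and 0.03 by mean log2 values. No paired analysis was possible because the groups share fewer than 2 replicate numbers, and no replicate could be left out of a group of 1 library. Without day 4, 11 members in place of 9 were lower on the remaining days in both labels. Members under a mean of 0.1 rest on few UMIs per library, and no replicate error is known.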
